A study of Mus musculus with 24 samples.

Results

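Gene expression in the glucagon-secreting alpha cells of the mouse pancreatic islet was compared between the middle of the light phase and the middle of the dark phase. Midday stands for alpha cells from islets isolated at zeitgeber time (ZT) 4 and 8 h, and midnight for alpha cells from islets isolated 12 h later, at ZT16 and ZT20. Each time had 2 libraries, so 4 midday and 4 midnight libraries, 8 of the 24 in the series, carried the comparison, and all 14027 genes of the deposited table were tested. A triple reporter strain of mice supplied all cells; the labels name no other allele, treatment, age or diet. The other libraries of the study were 4 alpha cell libraries of ZT0 and ZT12 and 12 beta cell libraries of the same 6 times. Whether the replicates of a time are separate animals is not stated in the labels, so each p-value below reflects the scatter of these libraries alone, part or all of which may be technical.

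Zeitgeber time counts the hours from the start of the light phase, when mice mostly rest and eat little. In the clock of mammalian cells the activators BMAL1 (Arntl) and CLOCK, or its relative NPAS2, drive the Period, Cryptochrome and REV-ERB genes through E-box sequences. Period and Cryptochrome proteins then block the activators, while REV-ERB represses and ROR activates Arntl through ROR elements, and the PAR bZIP factors DBP, TEF and HLF act on D-boxes. Alpha cells release glucagon when glucose is low, and their fuel use, calcium channels and granule machinery are tied to that task.

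The 8 libraries held 9533511 to 12364190 reads. The median gene had 222.5 reads, and 0.290% of the entries were 0. Gcg, the glucagon gene, took 17.0% to 24.2% of the reads in the midday libraries and 16.01% to 19.6% in the midnight libraries, the direction of the alpha cell label. The insulin genes Ins1 and Ins2 took 0.0683% to 0.506% at midday and 0.107% to 0.356% at midnight. Replicate 1 of ZT4 stood apart with the highest insulin share, and replicate 2 of ZT8 with the highest summed level of 23 immediate early genes, 3154 RPKM (reads scaled to gene length in kilobases and to library size) against 505 to 1672 RPKM in the other midday and 1213 to 1707 RPKM in the midnight libraries. For some lists the values of a fit without them are given beside the result, and counts without such values may move as well. In whole sorted populations fewer cells of a type and less RNA per cell cannot be told apart.

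The test was limma on the deposited log2 RPKM, with the midday minus midnight contrast of the 4 alpha group means and p-values adjusted over all 14027 genes. A gene was called at an adjusted p under 0.05. By this rule 2254 genes, 16.1% of those tested, differed between midday and midnight, of which 1245 (8.88%) were higher at midday and 1009 (7.19%) lower. The changes were small: the median fold of the called genes was 1.42 among those higher at midday and 1.53 among those lower. A change of at least 2-fold was reached by 101 higher and 230 lower genes, and of at least 4-fold by 4 higher and 18 lower genes. Over all genes the median log2 difference was 0.04. The 4 midday and the 4 midnight libraries did not overlap in 956 (76.8%) of the higher and 698 (69.2%) of the lower called genes. Over all genes 13.1% were higher at midday without overlap and 9.55% lower, 22.7% in either direction. The calls came from the same libraries, so their larger shares follow in part from that choice.

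The number of calls rested strongly on single libraries. It dropped to 515 without replicate 1 of ZT8, 613 without replicate 1 of ZT20, 695 without replicate 1 of ZT16, 801 without replicate 2 of ZT4 and 1125 without replicate 2 of ZT16. Without any 1 of the other 3 libraries it lay between 1738 and 2685. With both libraries that stood apart left out, an alternative chosen after seeing the data, 2230 genes were called. Of the 2254 genes, 372 (255 higher and 117 lower at midday) were called in every alternative fit that tested them, and no called gene changed sign in any. There were 20 such fits, 1 of which left out genes with a low mean. Of the 103 called genes that the naming rule took, 29 kept their call in every fit that tested them, among them Mt1, Mt2, Cpt1a, Lpl, Acaa2, Slc25a20, Cpt2, Plin2, Elovl6, Ffar1, Cirbp, Slc30a1, Fkbp4, Npas2, Cry1, Per2, Cacna1d, Pde10a and Snhg11.

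**Figure D1:**
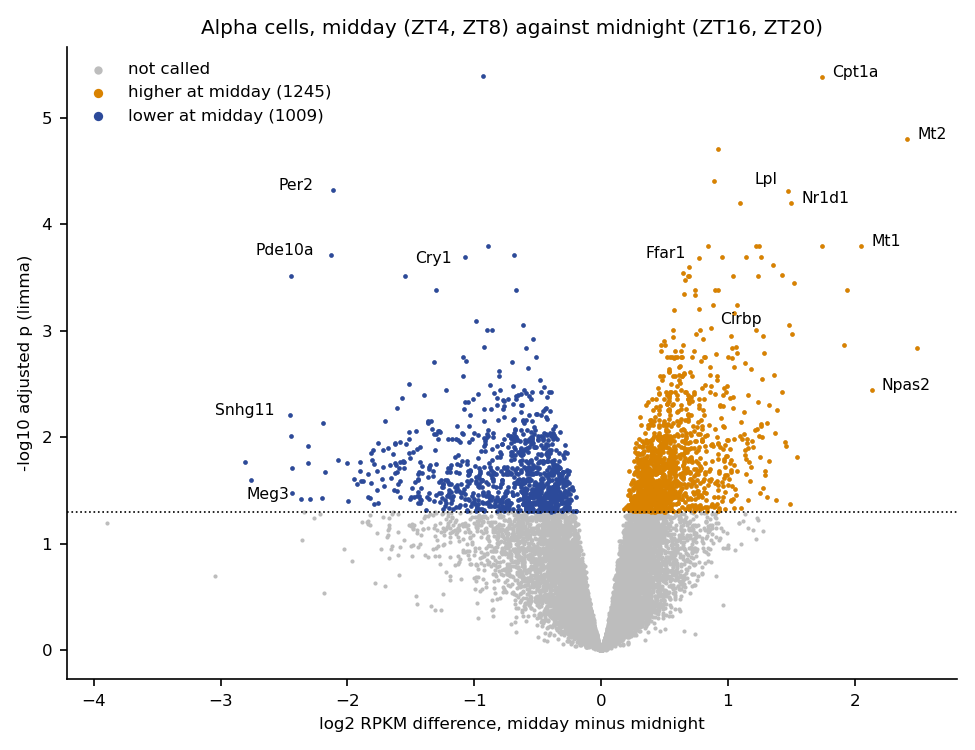
Each point is 1 of 14027 genes in alpha cells, with the log2 RPKM difference between midday and midnight on the horizontal axis and the −log10 adjusted p of limma on the vertical axis; the dotted line marks an adjusted p of 0.05. The 1245 genes higher at midday are orange and the 1009 lower genes blue, with Cpt1a, Mt2 and Per2 among the named genes far above the line.

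The alpha cell clock was in different states at midday and midnight. Of 20 core clock genes 11 were called, 6 higher and 5 lower at midday, against 16.1% called among all genes. These genes cycle in most tissues and were listed with that known, so the count describes them. The promoters of 3 of them are shown because each holds the letters of 1 of the 3 clock elements named above, printed from RefSeq on GRCm38.p6 with 250 bases before and 50 after the annotated start. Arntl (chr7:113207261-113207560, plus strand) holds 1 ROR element, TAGGTCA, Cry1 (chr10:85185005-85185304, minus strand) 1 E-box, CACGTG, and Per3 (chr4:151044616-151044915, minus strand) 2 D-boxes, TTATGTAA, each in capitals.
Arntl: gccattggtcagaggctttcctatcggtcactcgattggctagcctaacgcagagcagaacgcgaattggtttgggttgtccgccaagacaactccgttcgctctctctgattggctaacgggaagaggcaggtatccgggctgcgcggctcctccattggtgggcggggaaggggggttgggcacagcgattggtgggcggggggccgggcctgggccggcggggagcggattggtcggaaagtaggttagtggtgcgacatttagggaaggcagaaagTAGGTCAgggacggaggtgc
Cry1: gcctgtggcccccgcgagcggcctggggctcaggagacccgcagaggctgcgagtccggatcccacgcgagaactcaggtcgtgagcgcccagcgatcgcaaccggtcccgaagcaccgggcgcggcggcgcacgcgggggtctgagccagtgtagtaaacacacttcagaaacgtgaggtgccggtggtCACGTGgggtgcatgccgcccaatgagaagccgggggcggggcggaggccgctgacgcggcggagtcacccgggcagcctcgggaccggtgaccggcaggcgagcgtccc
Per3: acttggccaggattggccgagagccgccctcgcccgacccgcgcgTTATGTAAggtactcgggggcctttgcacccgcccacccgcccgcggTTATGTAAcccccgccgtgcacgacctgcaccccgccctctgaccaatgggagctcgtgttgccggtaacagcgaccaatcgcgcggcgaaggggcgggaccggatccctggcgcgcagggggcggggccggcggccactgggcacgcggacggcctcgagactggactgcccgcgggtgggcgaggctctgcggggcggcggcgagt

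On both strands the E-box letters stand in 7.15% of all 32851 promoters of this length, the D-box letters (TTATGTAA or TTACGTAA) in 1.06% and the ROR element in 2.61%. Among genes with a matched promoter the E-box stood in 13.4% of those higher at midday, 10.4% of those lower and 11.8% of all tested genes. The ROR element stood in 3.67% of the higher, 1.48% of the lower and 2.18% of all tested genes. The D-box stood in 0.755%, 1.21% and 0.828% in the same order. These are counts of letters in a window, without a test.

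The Period and Cryptochrome repressors were low at midday. Per2 had 5.22 and 3.21 RPKM at ZT4 and 4.87 and 4.68 RPKM at ZT8, against 21.1 and 20.04 RPKM at ZT16 and 19.98 and 16.3 RPKM at ZT20. The groups lay far apart, and Per2 fell by 2.12 on the log2 scale (SE 0.21, adjusted p = 4.7e-05). Cry1 had 5.04, 5.94, 3.51 and 4.20 RPKM in the midday and 8.26, 7.57, 12.6 and 11.2 RPKM in the midnight libraries, a difference of −1.07 (SE 0.13, adjusted p = 0.00020). Per3 was also separate, at 1.68 to 3.28 RPKM at midday and 4.99 to 12.4 RPKM at midnight (log2 difference −1.62, adjusted p = 0.011). Per1 had 6.25 to 12.8 RPKM at midday and 13.8 to 26.0 RPKM at midnight (−1.20, adjusted p = 0.027), so that the nearest libraries almost met.

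The calls of Per1 and Per3 were lost in 5 and 2 of the 8 fits that left out 1 library, with adjusted p up to 0.125 and 0.0543. Cry2 differed by −0.40 and was not called (adjusted p = 0.073), although its libraries did not overlap, at 17.1 to 22.8 RPKM at midday and 23.2 to 30.7 RPKM at midnight. Of the 5 repressors, 4 were thus called lower and none higher.

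The activator Npas2 was higher at midday and Clock was level. Npas2 had 0.442, 0.913, 0.255 and 0.199 RPKM in the midday libraries, against 0.0643, 0.0154, 0.0690 and 0.127 RPKM in the midnight libraries (log2 difference 2.13, SE 0.38, adjusted p = 0.0036). It rests on few reads, 1 to 56 per library, so the size of its change is uncertain. Arntl had 10.8 and 9.10 RPKM at ZT4 and 5.97 and 5.73 RPKM at ZT8, against 2.27 and 3.47 RPKM at ZT16 and 8.59 and 7.69 RPKM at ZT20. The ranges overlap, since ZT20 exceeded ZT8, and the averaged difference of 0.66 (SE 0.17, adjusted p = 0.021) was lost in 4 of the 8 fits without 1 library. Clock had 17.9 to 20.9 RPKM at midday and 19.1 to 20.6 RPKM at midnight (adjusted p = 0.92).

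The REV-ERB genes differed within the time windows as well as between them. Nr1d1, which encodes REV-ERB alpha, had 3.17 and 3.18 RPKM at ZT4 and 6.13 and 8.10 RPKM at ZT8, against 2.44 and 3.27 RPKM at ZT16 and 0.742 and 1.19 RPKM at ZT20. It rose by 1.501 on the log2 scale at midday (SE 0.16, adjusted p = 6.3e-05), although ZT4 and ZT16 overlapped. Nr1d2 (0.55, adjusted p = 0.0038), Rora (0.31, 0.017) and the PAR bZIP gene Dbp (0.63, 0.0050) were called higher, and Tef (−0.53, 0.0079) lower.

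Dbp and Nr1d2 also differed between ZT8 and ZT4. Dbp had 16.1 and 12.8 RPKM at ZT8 and 5.08 and 4.47 RPKM at ZT4, a log2 difference of 1.58 (adjusted p = 0.00097), and Nr1d2 had 32.1 and 28.8 RPKM at ZT8 and 14.9 and 13.9 RPKM at ZT4 (1.07, adjusted p = 0.0045). Within midday 9 genes (0.0642%) were called between ZT8 and ZT4, 4 higher (0.0285%) and 5 lower (0.0356%) at ZT8. Named after their values were seen, they included Nr1d2, Tef, Dbp, St8sia1, Adra2a, Kcng3 and Hist2h3c2. Within midnight 6 genes (0.0428%) were called between ZT20 and ZT16, 3 in each direction (0.0214%), among them Nr1d1, Nr1d2, Arntl and Dbp. These counts rest on 2 libraries a time. The first was 2 with the 12 alpha libraries in the fit, 0 with the 8 alpha libraries, 25 without replicate 2 of ZT4, 5 without replicate 1 of ZT4 or of ZT8 and 3 without replicate 2 of ZT8. The second was 0 with the 12 or the 8 alpha libraries, and 0 to 3 without 1 library. When the 8 libraries were fitted as 2 groups of 4, so that the time within a window counted as error, the calls of Nr1d1, Nr1d2, Dbp, Tef and Arntl were lost (adjusted p up to 0.337).

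With all libraries in the fit the remaining clock genes gave no call. Hlf (−0.38, adjusted p = 0.089), Nfil3 (0.60, 0.21), Bhlhe40 (−0.33, 0.41), Bhlhe41 (−0.01, 0.94), Ciart (−0.38, 0.41), Arntl2 (−0.59, 0.32) and Rorb (0.21, 0.66) had overlapping groups. Among 12 kinases, ubiquitin ligases and other modifiers of clock proteins only Huwe1, a ubiquitin ligase, was called (−0.48, adjusted p = 0.022), and its call was lost in 4 of the 8 fits without 1 library.

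**Figure D2:**
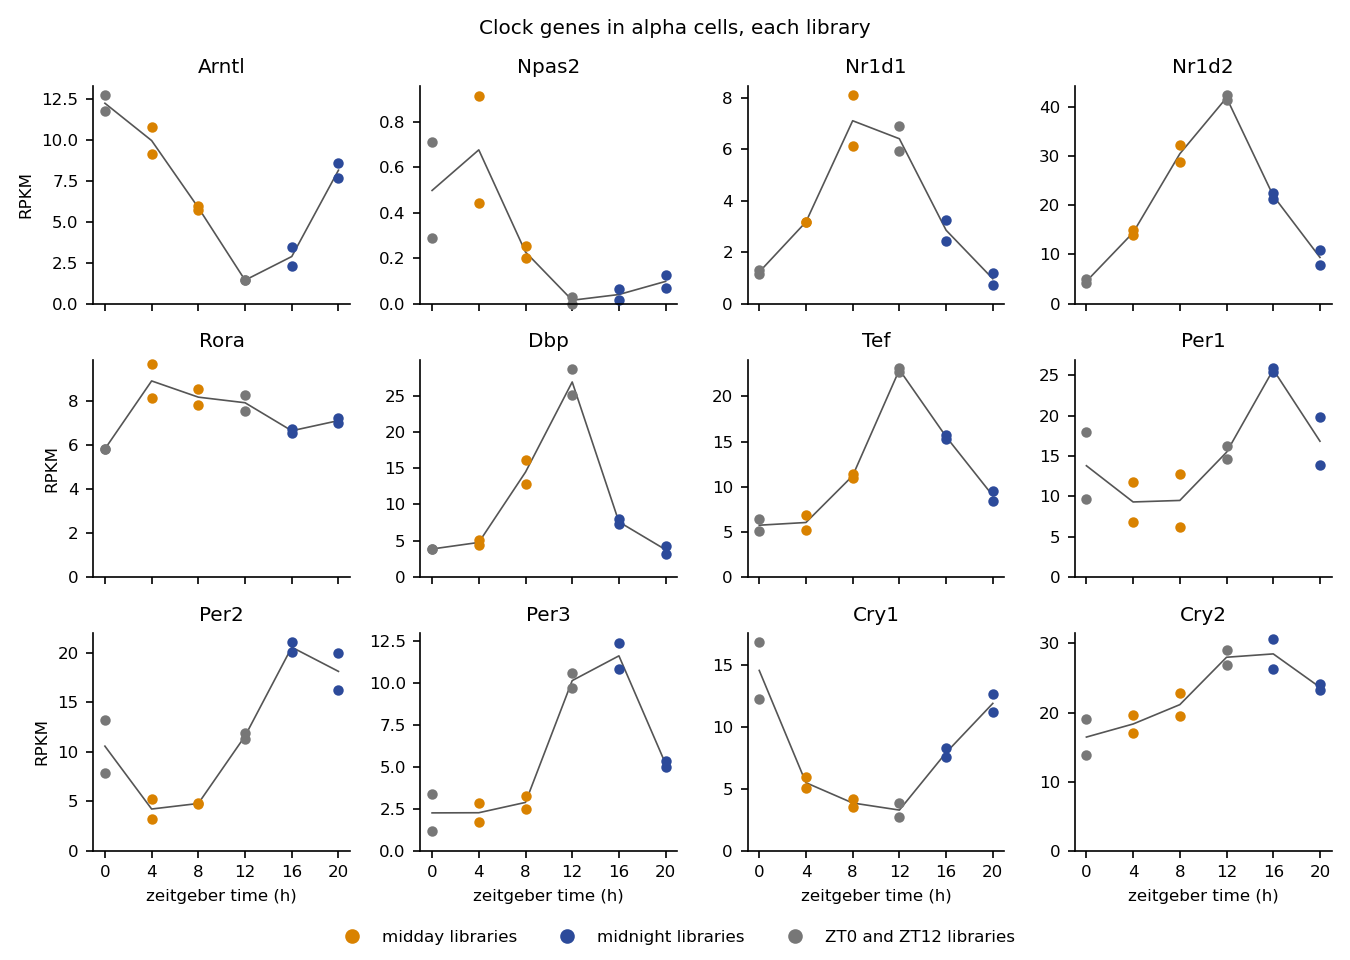
RPKM (vertical axis, from 0) of 12 clock genes in every alpha cell library at the 6 zeitgeber times in hours (horizontal axis); points are libraries, orange at midday, blue at midnight and grey at ZT0 and ZT12, and the line joins the means of the 2 libraries of a time. Per2 and Cry1 separate midday from midnight, while Arntl, Dbp and Nr1d2 also change inside a time window.

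By count, fatty acid oxidation gave more higher calls than any other of the 41 gene lists. Of its 17 genes 12 (70.6%, against 16.1% called among all genes) were higher at midday and none lower. By called share the Period and Cryptochrome (80.0%) and the REV-ERB and ROR lists (75.0%) stood above it. The lists were chosen with earlier results of these data known, so the rank and the shares describe them. The median log2 difference of the 17 was 0.49 against 0.04 over all genes. Cpt1a, the enzyme that commits long-chain fatty acids to mitochondria, had 16.6 and 24.1 RPKM at ZT4 and 21.1 and 16.2 RPKM at ZT8, against 5.68 and 5.004 RPKM at ZT16 and 5.33 and 7.10 RPKM at ZT20. The groups lay far apart, and the change was 3.34-fold (log2 1.74, SE 0.13, adjusted p = 4.2e-06). Slc25a20, the carrier that brings acylcarnitines across the inner membrane, had 11.7, 17.9, 19.1 and 15.98 RPKM at midday and 5.89, 6.47, 6.37 and 8.29 RPKM at midnight (1.23, SE 0.16, adjusted p = 0.00030). Acaa2, a thiolase of the last step of the cycle, had 16.8, 19.8, 25.7 and 15.5 RPKM at midday and 7.65, 7.16, 7.69 and 9.58 RPKM at midnight (1.25, SE 0.14, adjusted p = 0.00016).

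Cpt2, which regenerates acyl-CoA inside mitochondria, rose less (0.51, adjusted p = 0.0087). The other called members were Acadvl, Ehhadh, Acot2, Etfdh, Etfa, Etfb, Decr1 and Eci1, with log2 differences of 0.34 to 0.73. Acadm (−0.07), Hadha (0.21), Hadhb (0.28), Acadl (0.36) and Acot1 (0.90) did not pass the test. The number of called members ranged from 4, without replicate 1 of ZT8 or replicate 2 of ZT4, to 14, without replicate 1 of ZT4. It was also 6 and 5 without replicate 1 of ZT16 and of ZT20, and 8 without replicate 2 of ZT20. Cpt1a, Slc25a20, Acaa2 and Cpt2 were called in each of the 20 fits.

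Genes of lipid uptake and storage gave 2 calls among 11, 18.2% against 16.1% of all genes. Lpl, the lipase that frees fatty acids from circulating triglycerides, had 74.4, 105, 80.2 and 87.2 RPKM at midday and 19.6, 24.6, 48.5 and 39.3 RPKM at midnight (1.47, SE 0.15, adjusted p = 4.8e-05). Plin2, a lipid droplet coat protein, had 5.35 to 7.47 RPKM at midday and 2.78 to 5.35 RPKM at midnight (0.81, adjusted p = 0.0062), where replicate 2 of ZT20 reached the lowest midday library. In the opposite direction, Elovl6 (−0.61, adjusted p = 0.00088) and Scd2 (−0.41, adjusted p = 0.025), which lengthen and desaturate newly made fatty acids, were lower at midday among 12 genes of fatty acid synthesis (16.7% called). Scd2 lost its call in 5 of the 8 fits without 1 library. Of 18 sterol synthesis genes limma and voom called none, although 6 in limma had an unadjusted p under 0.05 (median −0.01). Sc5d, a desaturase of the last steps, differed by 0.33 (adjusted p = 0.058) and Lss, the lanosterol synthase, by −0.26 (adjusted p = 0.085).

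The metallothioneins Mt1 and Mt2, small proteins that bind zinc and copper, had among the largest rises. Mt2 had 43.9 and 59.4 RPKM at ZT4 and 48.2 and 62.6 RPKM at ZT8, against 9.44 and 9.05 RPKM at ZT16 and 9.42 and 10.7 RPKM at ZT20, a change of 5.34-fold (log2 2.42, SE 0.21, adjusted p = 1.6e-05). Mt1 had 117, 163, 122 and 232 RPKM at midday and 31.8, 37.9, 30.5 and 47.8 RPKM at midnight (2.05, SE 0.23, adjusted p = 0.00016). The genes are close copies, and the sources used here do not say how reads that match both were counted. Their promoters are shown because metal response elements (TGCGCNC or TGCACNC, capitals), the sites of the zinc sensor MTF1, are known to drive them: 4 in Mt2 (chr8:94172368-94172667) and 3 in Mt1 (chr8:94178839-94179138), both on the plus strand of GRCm38.p6 in RefSeq.
Mt2: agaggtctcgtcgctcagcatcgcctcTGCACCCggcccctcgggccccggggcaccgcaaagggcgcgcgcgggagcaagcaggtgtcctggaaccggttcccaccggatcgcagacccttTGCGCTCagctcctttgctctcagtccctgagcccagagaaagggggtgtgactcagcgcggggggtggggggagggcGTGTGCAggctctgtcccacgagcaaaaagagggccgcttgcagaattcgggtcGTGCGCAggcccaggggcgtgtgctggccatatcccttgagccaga
Mt1: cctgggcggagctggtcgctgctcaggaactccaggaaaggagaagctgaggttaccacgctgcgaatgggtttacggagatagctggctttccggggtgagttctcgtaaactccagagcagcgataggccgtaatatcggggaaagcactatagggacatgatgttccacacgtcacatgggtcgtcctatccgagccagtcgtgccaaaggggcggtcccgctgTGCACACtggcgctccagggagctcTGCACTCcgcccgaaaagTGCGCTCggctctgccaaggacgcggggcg

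These letters stand at least once in 25.7% of all promoters, in 36.5% of the genes higher at midday, in 42.9% of those lower and in 41.2% of all tested genes. The zinc exporter Slc30a1, another target of MTF1 and a member of the same list, rose as well (5.89, 7.47, 7.08 and 7.08 RPKM at midday, 4.56, 3.43, 4.02 and 4.51 RPKM at midnight; log2 0.74, adjusted p = 0.0016). In all, 4 of the 8 zinc and metallothionein genes were higher and 1, the importer Slc39a14, lower (−0.37, adjusted p = 0.033), a call that was lost in 6 of the 8 fits without 1 library. The called share of this list was 62.5%, against 16.1% of all genes. Mtf1 itself differed by −0.07 and the granule zinc transporter Slc30a8 by 0.12, neither called. Mt1 and Mt2 were also the 2 called members of a glucocorticoid and fasting list of 13 genes, a share of 15.4%, close to that of all genes.

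**Figure D3:**
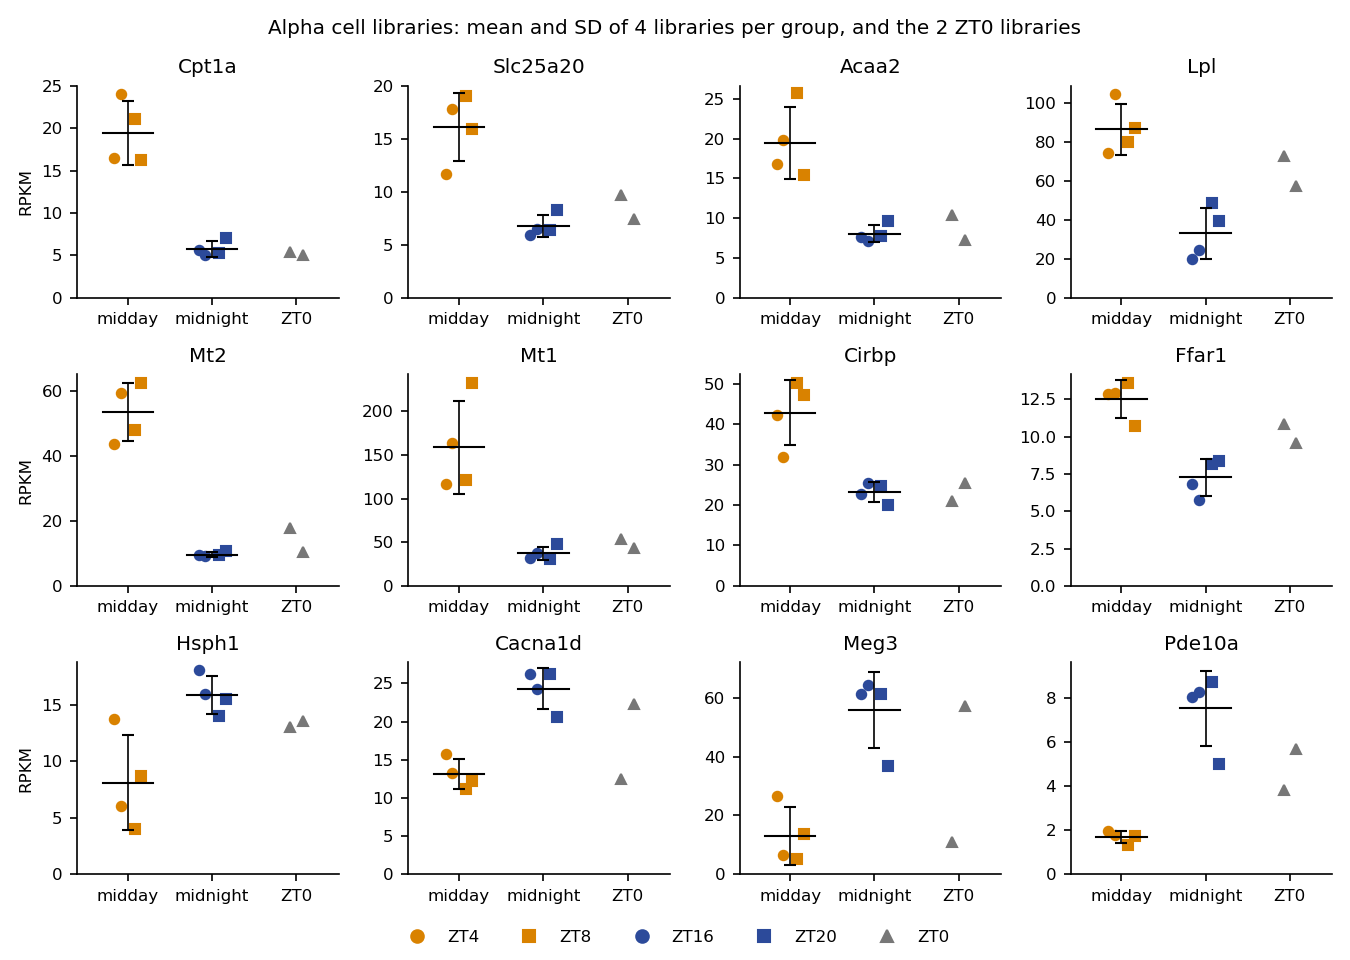
RPKM (vertical axis, from 0) of 12 genes in single alpha cell libraries; circles and squares are the libraries of the 4 times, horizontal bars and whiskers the mean and SD of 4 midday (orange) and 4 midnight (blue) libraries, and triangles the 2 ZT0 libraries, which the contrast did not use. Mt2, Cpt1a and Pde10a separate the groups with small scatter, whereas the ZT0 libraries of Meg3 lie 10.8 and 57.1 RPKM apart.

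Other genes with large rises had varied roles. Sult1c2, a sulfotransferase, had 2.36, 3.48, 4.17 and 3.90 RPKM at midday and 0.833, 1.03, 1.26 and 0.723 RPKM at midnight (1.74, adjusted p = 0.00016). Dynlrb2, a dynein light chain, had 10.02 to 11.5 RPKM at midday and 2.92 to 6.10 RPKM at midnight (1.43, adjusted p = 0.00030). Rgn (1.48), Dmrtc1a (1.37), the Y RNA Rny3 (1.29), the thyroxine-binding globulin gene Serpina7 (1.27) and the Slc41 family member Slc41a3 (1.26) completed the 12 largest under the naming rule. Among genes of lower abundance, the antisense transcript Hectd2os had the largest difference of all genes called higher (2.49); it was named after its value was seen, and reads of the 2 strands may not be told apart, since the sources used here give no strand setting for the counting.

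By count, the heat shock and co-chaperone list gave more lower calls than any other of the 41 lists. Of its 20 measured genes 8 (40.0%, against 16.1% called among all genes) were lower at midday and none higher, with a median of −0.27. Here too the lists were chosen with earlier results known, so the rank and share are descriptions. Hsph1, a nucleotide exchange factor of HSP70, had 13.7 and 6.02 RPKM at ZT4 and 4.01 and 8.67 RPKM at ZT8, against 18.1 and 15.98 RPKM at ZT16 and 14.04 and 15.5 RPKM at ZT20 (−1.11, SE 0.28, adjusted p = 0.018). The HSP90 co-chaperones Stip1 (−0.62, adjusted p = 0.026) and Fkbp4 (−0.42, 0.011) and the heat shock factor Hsf1 (−0.58, 0.025) were lower, as were Hsp90aa1, Chordc1, Ahsa1 and Hspa4. The promoter of Hsph1 (chr5:149636287-149636586, minus strand) is shown as the called member with a heat shock element (3 alternating GAA and TTC units, each 2 bases apart, capitals), which stands in 0.603% of all promoters.
Hsph1: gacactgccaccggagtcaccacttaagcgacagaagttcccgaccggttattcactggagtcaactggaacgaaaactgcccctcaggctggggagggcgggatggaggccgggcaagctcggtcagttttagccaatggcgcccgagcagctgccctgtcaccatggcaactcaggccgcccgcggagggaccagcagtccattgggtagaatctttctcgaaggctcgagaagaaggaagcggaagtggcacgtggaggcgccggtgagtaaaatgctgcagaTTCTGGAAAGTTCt

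This group depended on single libraries: 1 member was called without replicate 1 of ZT8, replicate 1 of ZT16 or replicate 2 of ZT4, 2 without replicate 2 of ZT16, 3 without replicate 2 of ZT20 and 5 without replicate 1 of ZT20, and Fkbp4 kept its call in every fit. Cirbp, an RNA-binding protein induced by mild cold, moved the other way. It had 42.3, 32.0, 50.1 and 47.2 RPKM at midday and 22.7, 25.5, 24.7 and 19.99 RPKM at midnight (0.87, SE 0.13, adjusted p = 0.00095). The other measured cold-inducible gene was not called, with a log2 difference of 0.18. Of 24 genes of the unfolded protein response 3, Edem1, Dnajb11 and Syvn1, were lower and 1, Derl3, higher, with a median of −0.01. Their called share of 16.7% was close to the 16.1% of all genes. None was called without replicate 1 of ZT8, and none was called lower without replicate 1 of ZT16.

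Of 23 immediate early genes limma called none, 2 had an unadjusted p under 0.05, and voom on the recovered reads called 1 lower. Their median of −0.34 lay between −1.05 and 0.17 when 1 library was left out, above 0 without replicate 1 of ZT8 or replicate 2 of ZT4. Nr4a3 had 0.356, 0.123, 0 and 0.441 RPKM at midday and 1.21, 0.725, 0.486 and 0.268 RPKM at midnight (adjusted p = 0.066). The libraries that stood apart were replicate 1 of ZT4 and replicate 2 of ZT8. Without both the median of the 23 was −1.48. It was −1.05 without replicate 2 of ZT8 alone and −0.80 without replicate 1 of ZT4 alone. Replicate 2 of ZT8 was singled out by its high level of these same genes. Its removal lowers their midday level by that choice, so the medians without it are no separate support for a fall at midday.

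Genes that shape excitability and granule release gave more lower than higher calls. In a list of 18 glucose-sensing and ion channel genes 4 were lower and 1, the KATP channel subunit Kcnj11, higher (0.30). The called share was 27.8%, against 16.1% of all genes. The lower ones were 4 pore subunits of voltage-gated calcium channels. Cacna1d, an L-type channel, had 15.8, 13.2, 11.1 and 12.2 RPKM at midday and 26.2, 24.2, 26.3 and 20.6 RPKM at midnight (−0.90, SE 0.19, adjusted p = 0.0094). Cacna1a, the P/Q-type channel, had 3.96 to 7.14 RPKM at midday and 9.08 to 14.9 RPKM at midnight (−1.25, adjusted p = 0.029). Cacna1h (−1.18, adjusted p = 0.032) and Cacna1c (−0.76, adjusted p = 0.033) followed.

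Without replicate 1 of ZT8, ZT16 or ZT20 or replicate 2 of ZT4 or ZT16 only 1 of these stayed called, Cacna1d, whose call held in every fit, and 6 genes of the list were called lower without replicate 1 of ZT4. Among 21 exocytosis genes the priming factors Unc13a (−0.87, adjusted p = 0.020) and Unc13b (−0.79, 0.014), the calcium sensor Syt7 (−0.27, 0.028) and Snap25 (−0.33) were lower, and Rab3d (0.39, 0.027) and Cplx2 (0.26) higher. These calls are 28.6% of the list, against 16.1% of all genes. No exocytosis gene was called without replicate 1 of ZT8, ZT16 or ZT20 or replicate 2 of ZT4. Without replicate 2 of ZT16 1 was called lower, without replicate 2 of ZT20 7, and without both libraries that stood apart 2.

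Ffar1, the receptor for long-chain fatty acids, had 12.9, 12.9, 13.6 and 10.7 RPKM at midday and 6.81, 5.77, 8.17 and 8.38 RPKM at midnight (0.78, SE 0.09, adjusted p = 0.00021). Among 19 receptor genes the only other call was Gabbr1, a GABA receptor subunit, lower at midday (−0.96, adjusted p = 0.022). The 2 calls are 10.5% of the list, against 16.1% of all genes. No receptor gene was called lower without replicate 1 of ZT8, ZT16 or ZT20 or replicate 2 of ZT4, 5 were without replicate 1 of ZT4 and 4 without both libraries that stood apart. Gabbr1 itself lost its call in 5 of the 8 fits without 1 library (adjusted p up to 0.0959). Gcgr (−1.41) and Glp1r (−0.65) were not called. Pde10a, a cyclic nucleotide phosphodiesterase, had 1.95, 1.76, 1.32 and 1.70 RPKM at midday and 8.04, 8.27, 8.73 and 5.01 RPKM at midnight, and fell by 2.13 (SE 0.25, adjusted p = 0.00019).

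Amino acid transporters supply a main stimulus of glucagon release. They gave 5 higher calls of 14 (35.7%, against 16.1% of all genes) and none lower. The 2 chains of the large neutral amino acid exchanger, Slc7a5 (0.48, adjusted p = 0.016) and Slc3a2 (0.39, 0.025), were among them, with Slc1a4, Slc6a9 and Slc7a1. Slc6a9 had only 0.0814 to 0.106 RPKM at midday and was not called in the limma fit of the 12 alpha libraries (adjusted p = 0.0793). No member was called without replicate 1 of ZT8, replicate 1 of ZT20 or replicate 2 of ZT4, and 1 to 3 without another of the libraries other than replicate 1 of ZT4, whose removal gave 6. Of 16 autophagy and lysosome genes 4 were higher (25.0%, against 16.1% of all genes). These were the autophagy receptor Sqstm1 (0.46, adjusted p = 0.0039), Gabarapl1 (0.58, 0.018) and the cathepsins Ctsd (0.56, 0.018) and Ctsb (0.48, 0.026). Sqstm1 alone of these 4 kept its call in all 20 fits. In this list 7 genes were called without replicate 1 of ZT4 or without both libraries that stood apart, and 1 without replicate 1 of ZT8, ZT16 or ZT20 or replicate 2 of ZT4.

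Large housekeeping groups gave few calls. For 75 nuclear genes of oxidative phosphorylation the median was 0.24, with 70 above 0, 4 called higher and none lower. None of the 4 was called without replicate 1 of ZT8, ZT16 or ZT20 or replicate 2 of ZT4, 1 gene was called without replicate 2 of ZT16 and 2 without replicate 2 of ZT8, 11 without replicate 1 of ZT4 and 7 without both libraries that stood apart. The 83 ribosomal protein genes had a median of 0.22 with 3 called higher, and the 78 mitochondrial ribosomal protein genes a median of 0.14 with 5 higher and 1 lower. Of the ribosomal protein genes 9 were called without replicate 1 of ZT4, 7 without both libraries that stood apart, 2 without replicate 1 of ZT16 or ZT20 or replicate 2 of ZT16, 1 without replicate 2 of ZT4 and none without replicate 1 of ZT8, and their median lay between 0.0858 and 0.3794 without 1 library. Of the mitochondrial ones 1 was called higher without replicate 1 of ZT8, ZT16 or ZT20 or replicate 2 of ZT4, 2 without replicate 2 of ZT16 and 3 without replicate 2 of ZT8. The shares of called genes in these 3 groups, 5.33%, 3.61% and 7.69%, were below the 16.1% of all genes. Sdha, the catalytic subunit of complex II, had 37.0, 40.6, 43.4 and 41.7 RPKM at midday and 33.4, 35.1, 33.2 and 32.9 RPKM at midnight (0.27, adjusted p = 0.047). Of 37 proteasome genes 1 was higher and 2 lower, of 15 cell cycle genes 2 and 1, and of 16 growth and mTOR genes 2 and 1. None of these was called without replicate 1 of ZT16, and 1 of them, a cell cycle gene, was called without replicate 1 of ZT8 or of ZT20. Hmox1, the heme oxygenase, was the only call among 20 antioxidant and NAD genes (1.14, adjusted p = 0.013), a list with 3 calls without replicate 1 of ZT4 and none without replicate 1 of ZT16. Fech (0.39) and Srm (−0.49) were called among 11 genes of heme and polyamine synthesis, and Srm lost its call in 4 of the 8 fits without 1 library.

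**Figure D4:**
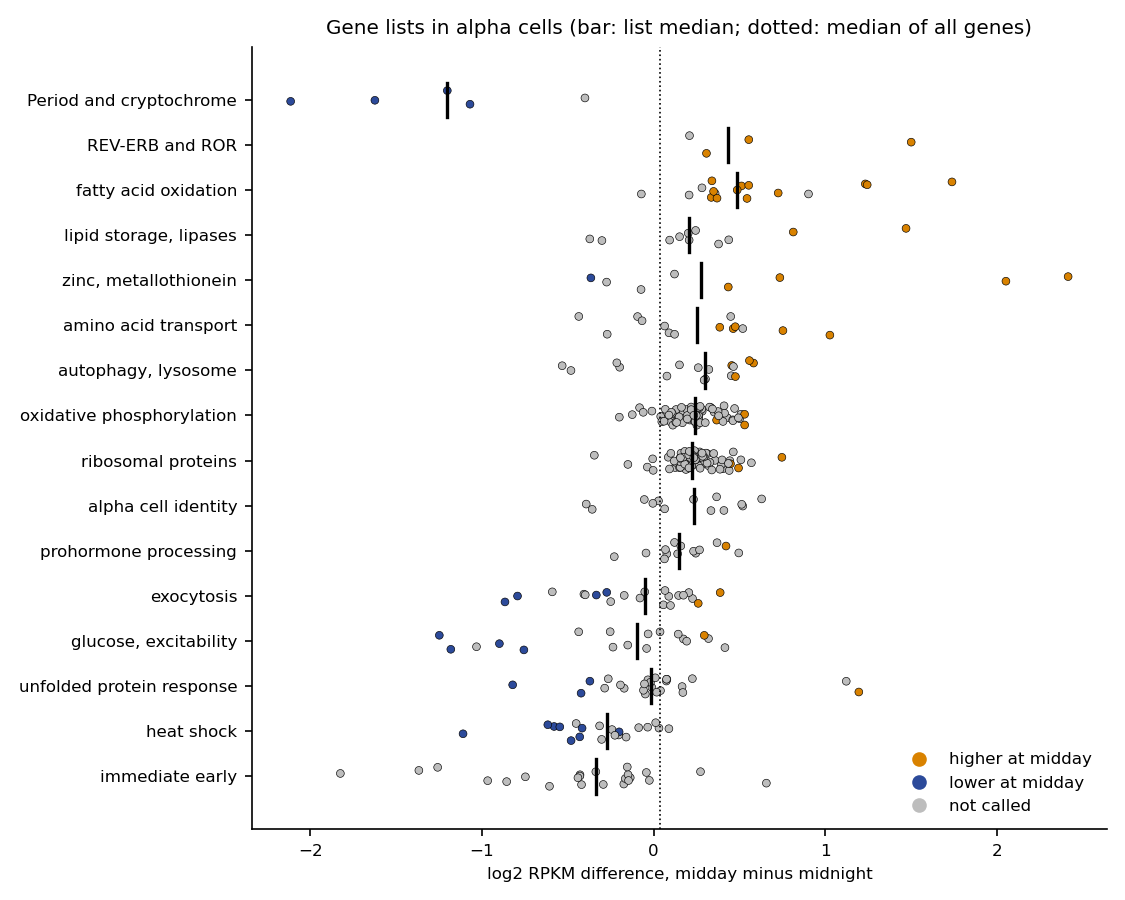
Log2 RPKM difference between midday and midnight (horizontal axis) of every measured member of 16 gene lists (rows) in alpha cells; orange and blue points are genes called higher and lower at midday, grey points genes not called, black bars the list medians and the dotted line the median of all genes. Fatty acid oxidation lies to the right with 12 higher genes, heat shock to the left with 8 lower genes, and the 75 oxidative phosphorylation genes sit close together around 0.24.

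The hormone and identity genes of alpha cells gave no call in the limma fit of all 24 libraries. The read share of Gcg averaged 21.3% ± 3.07 at midday and 17.6% ± 1.56 at midnight (SD, n = 4 each), a difference that did not pass an exact two-sided permutation test (p = 0.0857; 4 against 4 allow no p below 0.0286). Its log2 difference was 0.37 (SE 0.59 in the fit of all 24 libraries, whose spread includes beta cells, and SE 0.26 in the fit of the 12 alpha libraries, adjusted p = 0.313). None of 13 alpha identity genes was called in the limma fit of all 24 libraries (median 0.23). An unadjusted p under 0.05 was reached by 4 of them, and voom called 3 higher and 1 lower. Without replicate 1 of ZT4 limma called 2 higher, and without both libraries that stood apart 1. With all 24 libraries Ttr (0.51, adjusted p = 0.051) and Slc38a5 (0.52, 0.053) came nearest. In the limma fit of the 12 alpha libraries Slc38a5 was called (adjusted p = 0.041) and Ttr was not (0.117). Of 14 granule and prohormone processing genes 1 (7.14%, against 16.1% of all genes) was called, Pcsk2, the convertase that makes glucagon (0.42, adjusted p = 0.041). It lost the call in 7 of the 8 fits without 1 library (adjusted p up to 0.169), while 2 genes of the list were called without replicate 1 of ZT4.

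Ppy, the pancreatic polypeptide gene, had a read share of 1.75% ± 0.251 at midday and 1.19% ± 0.103 at midnight (SD, n = 4 each; exact two-sided permutation test p = 0.0286, the smallest possible, and 1 of 4 such shares tested, adjusted over them 0.114). The per-library shares were 1.80, 1.502, 2.08 and 1.62% at midday and 1.10, 1.28, 1.10 and 1.28% at midnight, without overlap. In limma its log2 difference of 0.65 was not called (adjusted p = 0.16), nor was that of Pyy (0.62, 0.086). The limma fit of the 12 alpha libraries gave an adjusted p of 0.0762 for Ppy and 0.0882 for Pyy. The insulin share was 0.191% ± 0.211 at midday and 0.192% ± 0.112 at midnight (SD, n = 4 each; exact permutation p = 1).

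Markers of other cells were measured beside these results. The 18 beta cell markers summed to 1947 to 6860 RPKM at midday and 2409 to 5188 RPKM at midnight. Of them 2 (11.1%, against 16.1% called among all genes), Pdx1 (−0.78) and Mafa (−2.0), were called lower at midday. Without replicate 1 of ZT4 6 were called lower, without replicate 1 of ZT8 1, without replicate 2 of ZT16 3, and none without replicate 1 of ZT16 or ZT20 or replicate 2 of ZT4. Without both libraries that stood apart the median log2 difference of the 18 markers was −0.54, against −0.25 in the fit of all libraries. Replicate 1 of ZT4 was singled out by its high insulin share and had the highest sum of these markers. Its removal lowers their midday level by that choice, so values without it are no separate support for a fall at midday. The 6 delta cell markers summed to 2861 to 4291 RPKM at midday and 3614 to 5180 RPKM at midnight. Sst was not called (−0.32, adjusted p = 0.30). Hhex (−1.01) and Ptprz1 (−1.28) were called lower, 33.3% of the list against 16.1% of all genes. The calls of these 2 were both lost without replicate 1 of ZT4, ZT16 or ZT20 or replicate 2 of ZT4 or ZT8, and 1 marker was called without replicate 1 of ZT8 or replicate 2 of ZT16.

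The 3 pancreatic polypeptide cell markers summed to 42837 to 59540 RPKM at midday and 28043 to 33711 RPKM at midnight without overlap. Among all single genes 22.7% did not overlap in either direction. Ppy held 42420 of the 59540 RPKM in replicate 1 of ZT8, so the sum largely repeats the Ppy values above. None of the 3 was called, and their log2 differences ran from 0.02 to 0.65. The 21 acinar markers summed to 113 to 390 RPKM at midday and 172 to 330 RPKM at midnight. The 4 duct markers summed to 142 to 191 RPKM at midday and 113 to 125 RPKM at midnight. Spp1 was called higher (1.16), which is 25.0% of the list against 16.1% of all genes. The call of Spp1 did not hold in every fit without 1 library. Only 2 of the 4 duct markers lay above 0, with log2 differences from −0.79 to 1.16 and a median of 0.06. All 4 had an unadjusted p under 0.05 in limma. The 5 endothelial markers gave 6.01 to 7.61 RPKM at midday and 4.01 to 5.40 RPKM at midnight, and the 6 immune markers 44.6 to 71.0 RPKM at midday and 40.6 to 63.2 RPKM at midnight. Of 6 stromal markers 1, Pdgfrb, was higher, and of 2 glial markers 1, Cdh19, lower. Neither call held in every fit without 1 library. The 2 glial markers summed to only 0.852 to 2.02 RPKM at midday and 1.59 to 3.87 RPKM at midnight. Of these lists only the immune one had a member at 0 reads in a library. Their part in the results was not tested.

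Among the genes that were lower at midday, several with the largest differences were also widely spread between the 2 replicates of ZT0. Meg3, an imprinted noncoding RNA (chr12:109541001-109571726, plus strand, GRCm38), had 26.6, 6.47, 5.28 and 13.7 RPKM at midday and 61.4, 64.4, 61.2 and 36.7 RPKM at midnight (−2.37, SE 0.71, adjusted p = 0.038). Its ZT0 libraries had 10.8 and 57.1 RPKM, and its call was lost in 6 of the 8 fits without 1 library. The listed microRNA genes Mir770 and Mir1906-1 lie within the Meg3 locus on the same strand, so their reads may be those of Meg3.

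Col27a1 (2.13 and 6.71 RPKM at ZT0), Rgs11 (1.34 and 5.61), Col20a1 (0.700 and 3.08), Hypm (0.736 and 6.12), H2al3 (0.443 and 4.10) and Snhg11 (0.575 and 3.12) showed the same spread at ZT0, with replicate 1 on the midday and replicate 2 on the midnight side. Hypm and H2al3 are neighbours on chromosome X. The calls of Hypm and Snhg11 held in every fit. Like that of Meg3, those of Col27a1, Rgs11, Col20a1, H2al3, Lgals4, Mir770 and Mir1906-1 did not. Lgals4, with 3.58 and 2.03 RPKM at ZT0, did not follow the spread of the replicates described here. By contrast Cpt1a had 5.39 and 5.02 RPKM, Hsph1 13.0 and 13.6 RPKM, and Per2 7.88 and 13.3 RPKM in the ZT0 replicates.

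Across the 11831 genes with a mean log2 RPKM above 0, the ZT0 difference between replicate 1 and replicate 2 correlated with the midday minus midnight difference at r = 0.614, whereas that of ZT12 gave −0.047. Genes share these libraries and are not independent, so the values are descriptions. ZT0 was not used by the contrast. The ZT0 difference was at least as large as the midday minus midnight difference in 11.7% of the higher and 19.2% of the lower called genes, against 57.8% of all genes. Called genes were selected for a large midday minus midnight difference, which lowers their shares by that choice, so no conclusion is drawn from them. Replicate 1 exceeded replicate 2 at ZT0 in 82.6% of the higher and 14.3% of the lower called genes, against 54.1% of all genes. Called genes also differed in genomic span, with a median of 19183 bases among the higher, 42786.5 bases among the lower and 23001.5 bases among all genes with an annotated position. The part of this replicate difference in the midday and midnight result was not tested.

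**Figure D5:**
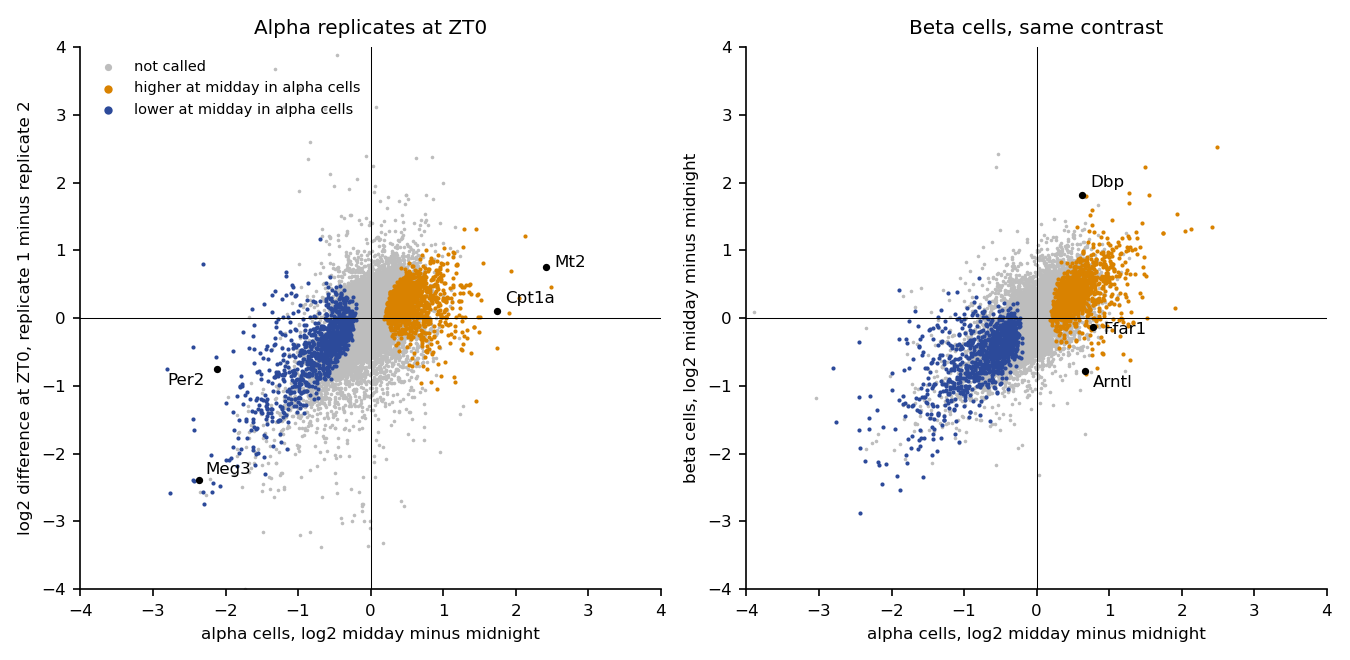
Midday minus midnight log2 difference in alpha cells (horizontal axis in both panels) against the log2 difference between replicates 1 and 2 at ZT0 (left) and against the same midday minus midnight difference in beta cells (right); each point is a gene, orange and blue where called higher and lower in alpha cells, and 17 genes lie outside the left panel. Meg3 lies on the left diagonal and Cpt1a near its horizontal line, while Arntl, Dbp and Ffar1 are marked on the right.

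The 2 comparisons 12 h apart inside the contrast gave fewer calls. Between ZT4 and ZT16 122 genes (0.87%) were called, 99 higher (0.706%) and 23 lower (0.164%), and between ZT8 and ZT20 301 genes (2.15%), 178 higher (1.27%) and 123 lower (0.877%). In both, 48 genes were called, 39.3% of the first and 15.9% of the second list, all 48 with 1 sign. Of all genes, 78.0% had the same sign in both comparisons. The first count was 13 without replicate 2 of ZT4, 15 without replicate 2 of ZT16 and 38 without replicate 1 of ZT16. The second was 34 without replicate 1 of ZT8, 18 without replicate 1 of ZT20, 134 without replicate 2 of ZT8 and 142 without replicate 2 of ZT20. The higher share of the first list was 81.1%, and 70.7% of 540 calls after quantile normalization. It was 58.1% without replicate 1 of ZT4, with 90 higher and 65 lower calls, and 54.5% without both libraries that stood apart, with 85 and 71.

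Beta cells of the same mouse strain and times were used to ask whether a midday difference was particular to alpha cells. In beta cells 2961 genes (21.1%) were called, 1336 higher (9.52%) and 1625 lower (11.6%). With the medians of the libraries set equal the split in beta cells was 1767 higher and 1290 lower, and in alpha cells 1341 and 951. Of the 2254 alpha cell calls 1070 were also called in beta cells, 47.5% of the alpha and 36.1% of the beta list, 1060 of them with the same sign. The difference between the cell types was itself called for 37 genes (0.264%), 26 (0.185%) with a higher and 11 (0.0784%) with a lower midday minus midnight value in alpha cells, and for 1345 genes at an unadjusted p under 0.05. The 37 became 21 (12 and 9) with library medians set equal and 76 (42 and 34) after quantile normalization. The number was mostly smaller when 1 of the 8 alpha libraries of midday and midnight was left out. No fit left out a beta library, so how far the differences rest on single beta libraries was not tested.

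Among clock genes the difference was called for Arntl, Dbp and Nr1d2. Arntl was higher at midday in alpha cells (0.66) and lower in beta cells (−0.78), a difference of 1.44 (SE 0.25, adjusted p = 0.027). The beta libraries had 8.88 and 8.91 RPKM at ZT4 and 0.863 and 1.63 RPKM at ZT8, against 3.28 and 3.73 RPKM at ZT16 and 8.85 and 9.55 RPKM at ZT20. At ZT8 alpha cells thus held 5.97 and 5.73 RPKM of Arntl and beta cells 0.863 and 1.63 RPKM. Dbp rose by 0.63 in alpha and by 1.81 in beta cells (difference −1.18, SE 0.17, adjusted p = 0.0094). Nr1d2 rose by 0.55 in alpha and by 1.34 in beta cells (difference −0.79, adjusted p = 0.033).

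Outside the clock, Ffar1 rose in alpha cells (0.78) and was not called in beta cells (−0.14, adjusted p = 0.29), where it had 36.5 to 64.3 RPKM at midday and 51.1 to 58.4 RPKM at midnight. The difference between the cell types was 0.91 (SE 0.13, adjusted p = 0.0094). Spon2, a secreted matrix protein, rose in both, by 0.68 in alpha and 1.80 in beta cells (difference −1.12, adjusted p = 0.019). Bhlha15, a secretory cell transcription factor, differed by −0.31 in alpha (not called) and −1.56 in beta cells (difference 1.25, adjusted p = 0.033). Tnpo2, a nuclear import receptor, and Rhou, a small GTPase, were higher at midday in alpha cells (0.31 and 0.27) and lower in beta cells (−0.45 and −0.34). For S100a4 the difference of −2.94 (adjusted p = 0.019) came from beta cells, with 7.89 to 14.4 RPKM at midday and 0.650 to 4.05 RPKM at midnight, while alpha cells had 0.136 to 0.782 RPKM at midday and 0.443 to 1.08 RPKM at midnight. Cpt1a, Mt2, Lpl, Acaa2 and Cirbp gave no called difference (0.49, 1.07, 0.72, 0.19 and 0.07, adjusted p = 0.388, 0.165, 0.187, 0.862 and 0.963), and no fatty acid oxidation gene did.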

How the data were processed

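Total RNA of sorted alpha and beta cells depleted of ribosomal RNA, was made into stranded libraries, per the labels' protocols. STAR, edgeR and mm10 are named without versions in the submitters' processing notes; for annotation, strand setting and gene filter the answer is not given in the sources used here. Deposited by the authors were log2 RPKM values with a prior count of mean 2.0, which understates changes of genes with few reads. Whole reads were recovered for all 14027 genes (100% of values within 0.0001 of a whole number) and served for depth, read shares and RPKM without the prior count. The test was limma 3.58.1 in R 4.3.3 with trend and robust estimation on all 24 libraries in 12 groups of cell type and time, adjusted by Benjamini-Hochberg over all genes, and checked on simulated data. The members and the 41 lists were chosen with earlier results of these data known. Some genes are not reported here and were left out of the lists and named genes, but not of the fits and counts over all genes. Named genes were the 12 largest called differences in each direction with at least 2 RPKM in the higher group and no overlap, the clock and hormone genes, up to 4 called members (or 2 uncalled) of other lists, and the 6 lowest p of the alpha minus beta difference; predicted genes were counted only. Of 14027 identifiers 13802 matched GENCODE M21 on GRCm38. Of 143 named genes 106 had a promoter in RefSeq. The replicates of all 12 groups differed beyond sampling noise (mean chi-square per gene 2.59 to 53.7) and each library was used. Alternatives were 19 other settings and 1 added after seeing the data.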

Additional observations from a re-analysis of the deposited data

Results flagged for a closer look

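Of 290 groups of 4 libraries examined, 23 had a library far from the other 3 by Dixon's criterion, where chance gives about 1 in 20. Replicate 1 of ZT4 was the highest midday library for Ins1 (1528 RPKM), Ins2 (3644 RPKM), the insulin read share (0.5065%), the summed beta cell markers (6860 RPKM), Mafa (3.452 RPKM) and Col20a1 (2.371 RPKM), and the lowest for Fbxw11 (21.66 RPKM) and Slc6a9 (0.0814 RPKM). Replicate 2 of ZT4 was the highest midday library for Slc1a4 (5.284 RPKM), Cpt2 (33.78 RPKM), Psmd11 (5.608 RPKM) and Ccnd2 (235.7 RPKM). At ZT8, replicate 2 was the highest for Bhlhe40 (3.106 RPKM) and Psmc4 (23.98 RPKM) and the lowest for Rorb (0.0867 RPKM), and replicate 1 the highest for Ppy (42420 RPKM).

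Among the midnight libraries, replicate 2 of ZT20 was the highest for Dynlrb2 (6.10 RPKM) and Plin2 (5.347 RPKM) and the lowest for Meg3 (36.69 RPKM), Unc13a (13.44 RPKM) and Syt7 (46.37 RPKM). Replicate 2 of ZT16 was the highest for Col20a1 (5.174 RPKM), and replicate 1 of ZT16 the highest for Mafa (6.703 RPKM).

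The midday minus midnight difference itself differed between alpha and beta cells, in limma's test of that difference, for 9 named genes. The log2 value in alpha minus that in beta cells was 1.44 for Arntl, −0.79 for Nr1d2, −1.18 for Dbp, 0.91 for Ffar1, 1.25 for Bhlha15, 0.75 for Tnpo2, −2.94 for S100a4, −1.12 for Spon2 and 0.61 for Rhou, with adjusted p of 0.00937 to 0.0332.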

How the results depend on the processing

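The number of genes called in alpha cells ranged, when 1 library was left out, from 324 to 1447 higher and from 191 to 1238 lower at midday, and it stayed within 1.5 times of the reported counts under the other settings. The 122 calls between ZT4 and ZT16 ranged from 13 to 155 without 1 library; they became 61 with the 12 alpha libraries only, 37 with the 8 alpha libraries only, 221 on log2(RPKM + 1), 194 with voom on the recovered reads and 540 after quantile normalization. The 301 calls between ZT8 and ZT20 ranged from 18 to 315 without 1 library, and became 134 with the 12 alpha libraries, 595 after quantile normalization and 143 with both libraries that stood apart left out. The 9 calls between ZT8 and ZT4 ranged from 3 to 25 without 1 library and became 2 with the 12 alpha libraries, 0 with the 8 alpha libraries, 5 with a pseudocount of 1 or 0.1 and 2 with both such libraries out. The 6 calls between ZT20 and ZT16 ranged from 0 to 3 without 1 library and became 0 with the 12 or the 8 alpha libraries, 3 on log2(RPKM + 1), 3 without robust estimation and 3 with both such libraries out, and the split of 3 higher and 3 lower became 6 and 3 after quantile normalization. The 37 differences between alpha and beta cells ranged from 7 to 37 without 1 library, and became 74 on log2(RPKM + 1), 21 with library medians set equal, 76 after quantile normalization and 11 with both such libraries out. In each case the cause was not tested, beyond the smaller number of libraries in the fits that leave some out.

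The replicate numbers were not taken as pairs, since the labels do not tie equal numbers together and not every pair of deviations correlated above 0.1. Deviations of alpha libraries with the same number correlated at −0.5 to 0.24 between times, and those of alpha and beta libraries of the same time and number at 0.0246 to 0.704, above 0.1 at 5 of the 6 times and lowest at ZT20. With the replicate block the alpha counts were 1160 higher and 925 lower, and with a replicate block within each time the difference between cell types gave 153 calls, 99 higher and 54 lower in alpha cells, against 37.

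The Ppy share difference ranged from 0.4505 to 0.64306 percentage points without 1 library, with an exact permutation p of 0.0571 each time, the smallest that 3 against 4 libraries allow. The insulin share difference ranged from −0.10658 to 0.05315 without 1 library and was positive in 4 of these, at 0.0354, 0.02595, 0.0395 and 0.05315. List medians near 0 also changed sign in some fits, between −0.0123 and 0.3667 for alpha identity, −0.2034 and 0.0499 for the unfolded protein response, −0.0591 and 0.023 for sterol synthesis and −1.484 and 0.1724 for immediate early genes. Among single genes the sign changed only in ones that were not called: Clock (−0.0499 after quantile normalization, −0.0361 to 0.057 without 1 library, −0.0417 with both libraries out), Rorb (−0.0468 to 0.4655), Bhlhe40 (−0.7723 to 0.1054), Bhlhe41 (0.0179 with equal medians, 0.0148 after quantile normalization, −0.0905 to 0.0678 without 1 library), Btrc (0.0042 with equal medians, −0.0606 to 0.0107), Gsk3b (−0.1444 to 0.0196, and 0.0338 with both libraries out), Usp2 (−0.0895 to 0.1866), Gcg (0 after quantile normalization), Ins1 (−0.861 to 0.1559), Ins2 (−0.7551 to 0.2555) and S100a4 (0.0576 with both libraries out); ranges without a named setting left out 1 library. Each fit without 1 library left out 1 of the 8 alpha libraries of midday and midnight, and none left out a beta library. The time of that library then has 1 alpha library, which is assumed to vary like the other groups.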
